A study of Homo sapiens with 9 samples.

Results

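The 10 genes described here encode subunits of protein phosphatase 2A (PP2A): the catalytic subunits PPP2CA and PPP2CB, the scaffold subunits PPP2R1A and PPP2R1B, the B55 subunit PPP2R2A and the B56 subunits PPP2R5A to PPP2R5E. They were chosen by name out of the 38147 genes of the count table, because PPP2R5A was already known to be lower in the SUGP1-edited cells of this experiment and the other subunits could then be examined for a rise. The PPP2R5A values in the SUGP1-edited cells are therefore a description, with no test. All 10 genes passed the filter on low values that left 21071 genes for testing, with between 743 and 29253 read pairs per gene and library.

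The cells were U-2 OS, a human osteosarcoma line, transfected with Cas9 and then with a guide RNA (crRNA). Each of the 3 groups held 3 libraries of polyA RNA, 1 from each of 3 independent experiments, and the replicate number in the labels is taken here as the experiment. The NTC group received a guide from the non-targeting pool, the crXCR1 group a guide to XCR1, a chemokine receptor gene of dendritic cells that serves as a control for cutting, and the crSUGP1 group a single guide to SUGP1. Cas9 was given to all the groups. The cells were a transfected population, and the sources used here describe no selection of a clone. SUGP1 is a nuclear protein that is known to act with SF3B1 in the choice of 3′ splice sites, and the experiment asked which mRNAs depend on it.

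PP2A is one of the main serine/threonine phosphatases of human cells. Its core is a dimer of a catalytic C subunit and a scaffold A subunit, and a B subunit joins the core and sets where the enzyme goes and what it acts on. The B56 subunits bind short motifs in their partners. They are known for work at centromeres with shugoshins, at kinetochores with BUBR1, in Wnt signalling with axin and APC, and in the turnover of MYC. B55 enzymes are known for reversing mitotic phosphorylation as cells leave mitosis.

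The libraries held 68712738 to 107952835 counts, with a median of 86848671, and the values below are CPM, counts scaled by the size of each library with TMM factors, unless another scale is named. SUGP1 was lower in every crSUGP1 library than in any control library, with a mean of 7.36 CPM against 29.8 in NTC and 29.6 in crXCR1. The 3 libraries of experiment 3 stood apart from the others, as described below for the PP2A genes. Of the osteoblast and mesenchymal markers, RUNX2, ALPL, SPARC, COL1A1 and VIM were present in every library, while COL1A2 was near 0, at 0.0992 to 0.215 CPM. The 6 markers summed to 4201 to 4663 CPM in NTC, 4242 to 4533 in crXCR1 and 3944 to 4185 in crSUGP1, which lay below the controls. Over the 9 libraries the 3 epithelial markers summed to 5.20 to 6.34 CPM and the 3 endothelial markers to 3.22 to 5.93. Of the leukocyte genes given here, PTPRC lay at 0.322 to 0.567 CPM and CD3E was at 0 throughout. Of the markers tested, edgeR and DESeq2 called none in any comparison. The 5 osteoblast and mesenchymal markers tested all had log2 fold changes below 0 in crSUGP1, and with experiment as a block RUNX2 and COL1A1 passed an adjusted p of 0.05 against both control groups, at −0.23 and −0.17 against NTC. The endothelial genes CDH5 and VWF also passed it against both, on the lower side, and the epithelial gene KRT5 against crXCR1. Of these, VWF alone was past the fold threshold with the block, against crXCR1, and it alone had an unadjusted p under 0.05 by edgeR without it. With the block and no fold threshold, 15.7% of all genes passed that adjusted p by edgeR against NTC and 21.7% against crXCR1. The part of these markers in the results below was not tested. In bulk RNA, fewer cells that express a gene and less of its RNA per cell cannot be told apart.

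The crSUGP1 guide is shown first, since it fixes where in the genome the cut was aimed and how far that sequence is from the PP2A genes. The crSUGP1 guide matched SUGP1 without a mismatch at chr19:19297309-19297328 of GRCh38, on the plus strand, in an exon and next to a GGG that serves as the PAM, the short motif Cas9 needs beside its target. In the comparison below, capitals mark the bases that differ from the guide in an exon site of PPP2R5A, 1 of its 6 sites with the fewest mismatches.
crSUGP1 guide: tacttgtacccttggctatt
PPP2R5A exon site: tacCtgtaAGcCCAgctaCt
That PPP2R5A site lies at chr1:212306884-212306903 of GRCh38 on the minus strand, with a CGG as the PAM. Counted from 1 at the 5′ end of the guide, it carries the substitutions T4C, C9A, C10G, T12C, T13C, G14A and T19C. PPP2R5A itself spans chr1:212285410-212361853 on the plus strand. Of the 7713 sites next to an NGG in that span, 6 had 7 mismatches, the lowest number found, and 0 had up to 4. In the other 9 PP2A genes the lowest number of mismatches was 6 or 7. A count of mismatches describes the sequence and measures no cutting.

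PPP2R5A encodes B56 alpha, a regulatory subunit that takes PP2A to MYC and to the centromere, among other places. The 3 NTC libraries held 22.8, 23.6 and 25.9 CPM of PPP2R5A in experiments 1, 2 and 3. The crXCR1 libraries held 24.1, 24.6 and 25.0 CPM. The crSUGP1 libraries held 9.71, 11.4 and 10.5 CPM. The control groups overlapped, and the crSUGP1 libraries lay below all 6 control libraries by a wide gap.

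In means, PPP2R5A was at 10.5 ± 0.844 CPM in crSUGP1 (SD, n = 3), against 24.1 ± 1.63 in NTC and 24.6 ± 0.417 in crXCR1. The log2 fold change was −1.19 against NTC (95% interval −1.37 to −1.01), which is 0.437 times the NTC level. Against crXCR1 it was −1.22 (95% interval −1.40 to −1.04), or 0.429 times the crXCR1 level. Within experiments 1, 2 and 3, the log2 ratio of crSUGP1 over NTC was −1.23, −1.05 and −1.30, and that over crXCR1 was −1.31, −1.11 and −1.25. The 3 experiments thus gave drops of like size. Only 17 of the 21071 tested genes had a lower fold change than PPP2R5A against NTC, 7 of them among the 16793 genes with a mean of at least 1 CPM. Against crXCR1 the numbers were 33 and 8. These are the contrasts for which PPP2R5A was picked, so its place among all genes is no independent result.

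The comparison of the control guides did not enter the choice of PPP2R5A. Its log2 fold change in crXCR1 against NTC was 0.03 (SE 0.08, 95% interval −0.15 to 0.20) with an adjusted p of 1.00 by edgeR. That interval reaches from 0.902 to 1.15 times the NTC level, so a change of the size seen in crSUGP1 lies outside it.

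**Figure D1:**
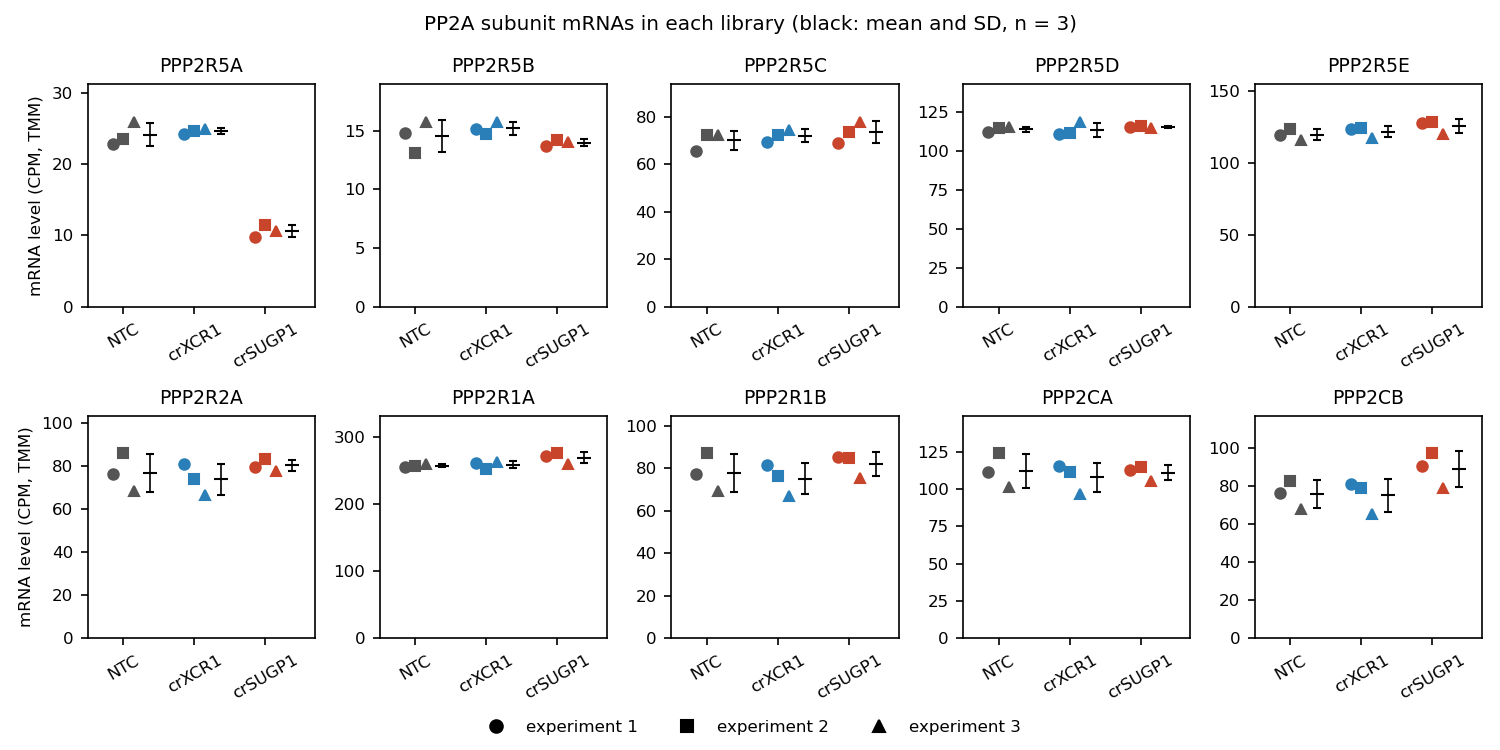
Level of each PP2A subunit mRNA (CPM after TMM scaling, each axis from 0) in the 9 libraries, by guide, with the experiment as the symbol and the mean and SD of 3 libraries in black. PPP2R5A is the only panel where the crSUGP1 points, at 9.71 to 11.4 CPM, lie clear below all control points, while in the PPP2CB panel each crSUGP1 symbol lies above the control symbols of the same experiment.

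Beside PPP2R5A, no PP2A gene was called by edgeR in either comparison with crSUGP1, where a call needed an adjusted p no higher than 0.05 together with a log2 fold change of 0.5 or more in size. That makes 1 of 10 members called, against 0.783% of all tested genes in crSUGP1 against NTC and 0.774% in crSUGP1 against crXCR1, and since PPP2R5A was chosen on those contrasts nothing is read from that count. Of the 9 other members, edgeR gave 0 an unadjusted p under 0.05, beside 13.2% of all genes against NTC and 16.1% against crXCR1. DESeq2 called 0 of the 9, beside 1.14% and 1.27% of all genes. With experiment as a block 0 of the 9 were called, where 2.85% of all genes were called against NTC and 3.90% against crXCR1. Their lowest adjusted p by edgeR was 0.410 against NTC and 0.316 against crXCR1, and both belonged to PPP2CB. In crXCR1 against NTC, 0 of 10 members were called, as were 0 of all tested genes (0%), of which 1.34% had an unadjusted p under 0.05, and the lowest unadjusted p by edgeR among the 9 others was 0.453. With experiment as a block 0 members were called there, against 0.00475% of all genes.

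The other B56 genes are the closest relatives of PPP2R5A, and their proteins share its place in the enzyme. PPP2R5B, B56 beta, had the lowest counts of the B56 genes in the controls. Its NTC libraries held 14.8, 13.1 and 15.8 CPM, its crXCR1 libraries 15.1, 14.7 and 15.8, and its crSUGP1 libraries 13.7, 14.2 and 14.0. The groups overlapped. In crSUGP1 the log2 fold change was −0.06 relative to NTC and −0.12 relative to crXCR1, with SEs of 0.08.

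PPP2R5C, B56 gamma, is known for its part in the control of p53. It was at 65.5, 72.3 and 72.3 CPM in NTC, at 69.4, 72.2 and 74.6 in crXCR1 and at 68.9, 73.6 and 78.0 in crSUGP1. In each group experiment 1 gave the lowest value, and the groups overlapped. Relative to NTC the log2 fold change in crSUGP1 was 0.07, and relative to crXCR1 it was 0.03, with SEs of 0.07.

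PPP2R5D encodes B56 delta, in which de novo variants are known to cause a neurodevelopmental disorder. It was at 112, 115 and 115 CPM in NTC, at 111, 111 and 119 in crXCR1 and at 116, 116 and 115 in crSUGP1. Against either control group the log2 fold change was 0.02, with SEs of 0.05, and the groups overlapped. Of the 100-base stretches in its exons, 43.3% are shared with MEA1, a gene on the other strand at a like level (118 CPM against 114 for PPP2R5D), and whether counting kept the strands apart is not stated. MEA1 had log2 fold changes of 0.06 and 0.07 against NTC and crXCR1, and edgeR did not call it.

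PPP2R5E, B56 epsilon, had the highest mean CPM of the B56 genes in each group. It was at 120, 124 and 116 CPM in NTC and at 124, 125 and 117 in crXCR1. In crSUGP1 it was at 128, 129 and 120 CPM. The 3 crSUGP1 values were each above both controls of the same experiment, yet experiment 3 of crSUGP1 was below other control libraries. The crSUGP1 log2 fold change was 0.07 beside NTC and 0.04 beside crXCR1, with SEs of 0.06.

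The upper ends of the intervals give the largest rise that each left room for. Against NTC, the upper 95% bounds of the 4 other B56 genes ran from a level 8.67% higher to one 16.3% higher. Against crXCR1 they ran from 4.05% to 13.0% higher. With experiment as a block the bounds ran from 5.55% to 12.1% higher against NTC and from 1.05% to 9.73% higher against crXCR1.

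**Figure D2:**
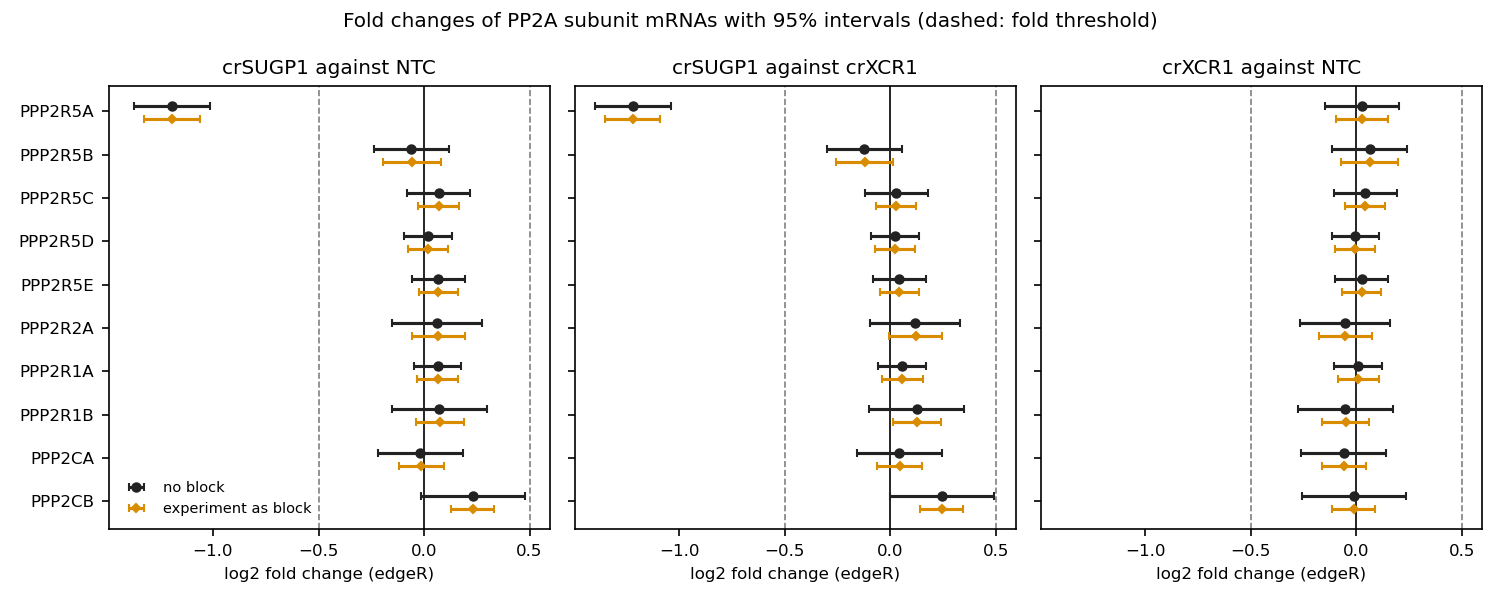
Log2 fold changes of the 10 PP2A genes by edgeR with 95% intervals, without a block (black) and with experiment as a block (orange), in the 3 comparisons. PPP2R5A lies at −1.19 and −1.22 in the crSUGP1 comparisons and at 0.03 between the controls, and the dashed lines mark the fold threshold of 0.5. In the crSUGP1 comparisons the PPP2CB intervals lie clear of 0 with the block alone, as does the PPP2R1B interval against crXCR1.

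PPP2R2A encodes B55 alpha, the B subunit that acts in mitotic exit, and is the only member outside the B56 family among the B subunits. It ranged from 68.4 to 86.0 CPM in NTC, from 66.7 to 81.1 in crXCR1 and from 77.8 to 83.1 in crSUGP1. The groups overlapped, with log2 fold changes in crSUGP1 of 0.06 (NTC as the control) and 0.12 (crXCR1 as the control) and SEs of 0.09.

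The scaffold genes also overlapped between the groups. PPP2R1A, the main scaffold and the member with the most counts, ranged from 255 to 259.6 CPM in NTC, from 253 to 262 in crXCR1 and from 259.6 to 276 in crSUGP1. It had a log2 fold change in crSUGP1 of 0.06 against either control group, with SEs of 0.05. PPP2R1B ranged from 69.4 to 87.1 CPM in NTC, from 67.1 to 81.6 in crXCR1 and from 75.4 to 85.2 in crSUGP1. For PPP2R1B the log2 fold change was 0.07 with NTC and 0.13 with crXCR1 as the control, with SEs of 0.10. With experiment as a block, its 95% interval against crXCR1 was 0.015 to 0.239, with an adjusted p of 0.0980 by edgeR. Per length, the ratio of PPP2R1A to PPP2R1B was 2.16 ± 0.256 in NTC (SD, n = 3), 2.24 ± 0.246 in crXCR1 and 2.13 ± 0.0861 in the SUGP1-edited cells. That ratio depends on the length used, and with canonical transcript lengths it was 3.46, 3.60 and 3.42 in the same order.

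The catalytic subunit is encoded by a pair of genes, of which PPP2CA had the higher counts. It was at 111, 124 and 101.5 CPM in NTC, at 115, 111 and 96.8 in crXCR1 and at 113, 115 and 105 in crSUGP1. The groups overlapped, and the crSUGP1 log2 fold changes were −0.02 and 0.04 with NTC and crXCR1 as controls, with SEs of 0.09.

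PPP2CB encodes a catalytic subunit nearly identical to that of PPP2CA. It was at 75.99, 82.5 and 68.0 CPM in NTC and at 81.0, 78.7 and 65.1 in crXCR1. In crSUGP1 it was at 90.2, 97.2 and 78.8 CPM. Each crSUGP1 value was above both controls of its own experiment, while the crSUGP1 library of experiment 3 was below the crXCR1 library of experiment 1 and the NTC library of experiment 2. The log2 fold change of PPP2CB was 0.23 against NTC (95% interval −0.01 to 0.48), with an adjusted p of 0.410 by edgeR. Against crXCR1 it was 0.24 (95% interval 0.00 to 0.49), with an adjusted p of 0.316 by edgeR.

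With all 9 libraries, the result for PPP2CB turned on whether the experiment was in the fit. Within experiments 1, 2 and 3 its log2 ratio of crSUGP1 over NTC was 0.25, 0.24 and 0.21, and that over crXCR1 was 0.15, 0.30 and 0.27. With experiment as a block, its log2 fold change of 0.23 against NTC had a 95% interval of 0.13 to 0.33 and an adjusted p of 0.00453 by edgeR. Against crXCR1 the blocked value was 0.24 (0.14 to 0.35), with an adjusted p of 0.00249 by edgeR. It stayed under the fold threshold and so was not called. Of the 9 members other than PPP2R5A, PPP2CB was the only one past an adjusted p of 0.05 in the blocked fit, in either direction. That fit put 15.7% of all genes past it against NTC and 21.7% against crXCR1, with 6.72% and 9.99% on the higher side. Nothing is read from that count.

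Per length, the ratio of PPP2CA to PPP2CB was 1.03 ± 0.0137 in NTC (SD, n = 3), 1.00 ± 0.0271 in crXCR1 and 0.872 ± 0.0523 in the SUGP1-edited cells. The crSUGP1 libraries ran from 0.821 to 0.926, below the lowest control library at 0.982. With canonical transcript lengths the order of the pair turned, with ratios of 0.632 ± 0.00836, 0.612 ± 0.0166 and 0.534 ± 0.0320, and the crSUGP1 libraries again lay below the controls, since the length scales all libraries alike. The ratio was examined after the values of both genes had been seen and is given as a description. A part of the PPP2CA exons, 20.4% of their 100-base stretches, is shared with a gene on the same strand (ENSG00000273345), so its count could have been split, while PPP2CB shares none.

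The members were also counted by overlap between libraries. The 3 crSUGP1 libraries lay below all 6 control libraries for 1 member, PPP2R5A, against 6.69% of all genes, and above all of them for 0 members, against 6.36% of all genes. They lay above both controls in each experiment for 2 members, PPP2R5E and PPP2CB, against 17.0% of all genes. They lay below both controls in each experiment for PPP2R5A alone, against 17.6% of all genes.

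**Figure D3:**
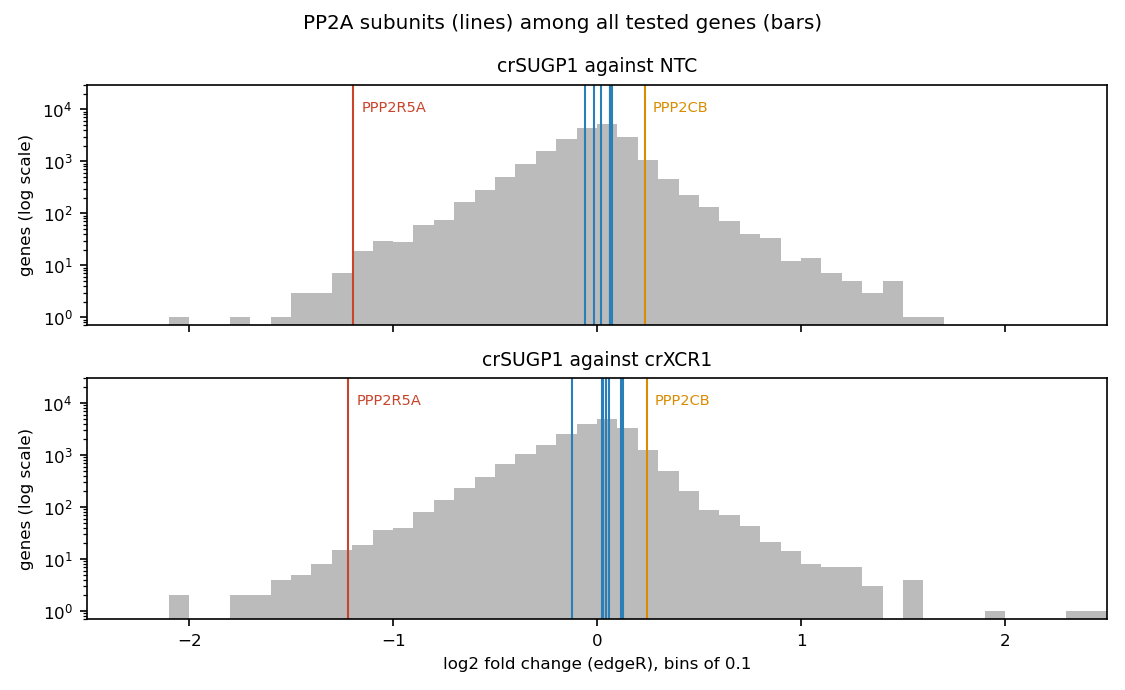
Number of tested genes (log scale) in bins of log2 fold change by edgeR, in crSUGP1 against NTC and against crXCR1, with a line at each PP2A gene. PPP2R5A lies in the thin lower tail, PPP2CB at 0.23 and 0.24, and the other 8 lines lie between −0.12 and 0.13.

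Levels can be compared between genes only per length, so counts were divided by the exon length of each gene and then scaled to a fixed total in each library (TPM). In NTC, PPP2R5D was highest at 98.6 ± 3.95 TPM (SD, n = 3), though its count could hold reads of MEA1, as described above. The scaffold PPP2R1A followed at 81.4 ± 2.76. The catalytic genes PPP2CA and PPP2CB came next at 56.6 ± 5.64 and 54.7 ± 5.02, and their ranges overlapped. PPP2R5E at 42.7 ± 1.59 and PPP2R1B at 38.1 ± 4.28 also overlapped in range, and PPP2R2A followed at 28.6 ± 3.24. PPP2R5A, at 20.04 ± 1.83, was the eighth of 10, above PPP2R5C at 15.9 ± 1.29 and PPP2R5B at 14.2 ± 1.45, whose ranges overlapped.

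PPP2R5A moved to the last place of the 10 in crSUGP1 libraries, with 8.78 ± 0.805 TPM. No other member moved by more than 1 place over the 9 libraries. The order depends on the length used. With the length of the canonical transcript of each gene, PPP2R1A was highest in NTC at 95.4 TPM, PPP2R5C stood at 30.03, above PPP2R5A at 14.8, and PPP2R5B stayed last at 10.6. PPP2R5C has 14378 bases of annotated exon and a canonical transcript of 4630, the widest gap of the members.

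The B56 mRNAs together summed to 191 ± 8.21 TPM in NTC (SD, n = 3), 196 ± 7.16 in crXCR1 and 184 ± 5.74 in the SUGP1-edited cells. PPP2R5A made up 10.5 ± 0.551% of that sum in NTC and 10.5 ± 0.0762% in crXCR1, but 4.76 ± 0.335% in crSUGP1. PPP2R5D took the largest share of the TPM sum in each group, at 51.5%, 50.8% and 54.3%. Its count could hold reads of MEA1, so every B56 sum and share given here carries that limit. The crSUGP1 sum differed by −3.85% from that of NTC and by −5.996% from that of crXCR1. PPP2R5A alone differed by −11.3 TPM from NTC and by −11.9 TPM from crXCR1.

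Without PPP2R5A, the sum of the other 4 B56 mRNAs was 171 ± 6.53 TPM in NTC, 175 ± 6.50 in crXCR1 and 175 ± 5.11 in crSUGP1. That is 2.27% above NTC and 0.0745% above crXCR1. The size depends on the scale, both on division by length and on how the libraries are scaled. Without division by length (CPM) the sum was 3.16% above NTC and 1.77% above crXCR1. Divided by length but with TMM scaling (CPM per kb), it was 2.06% above NTC and 1.18% above crXCR1. Within experiments, the crSUGP1 sum was above that of NTC in 3 of 3 on each of these scales. It was above that of crXCR1 in 1 of 3 in TPM, 2 of 3 in CPM per kb and 3 of 3 in CPM. The sum was not tested. The difference in means was 2.13 TPM for PPP2R5E, 1.47 for PPP2R5D, 0.832 for PPP2R5C and −0.535 for PPP2R5B in crSUGP1 less NTC. The SDs pooled over both groups were 1.21, 3.50, 1.44 and 1.11 TPM in that order. In crSUGP1 less crXCR1 the differences were 0.827, 0.499, 0.168 and −1.36 TPM, with pooled SDs of 0.702, 4.55, 1.27 and 0.684. None of these 4 genes had passed the test in the fit over all genes.

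**Figure D4:**
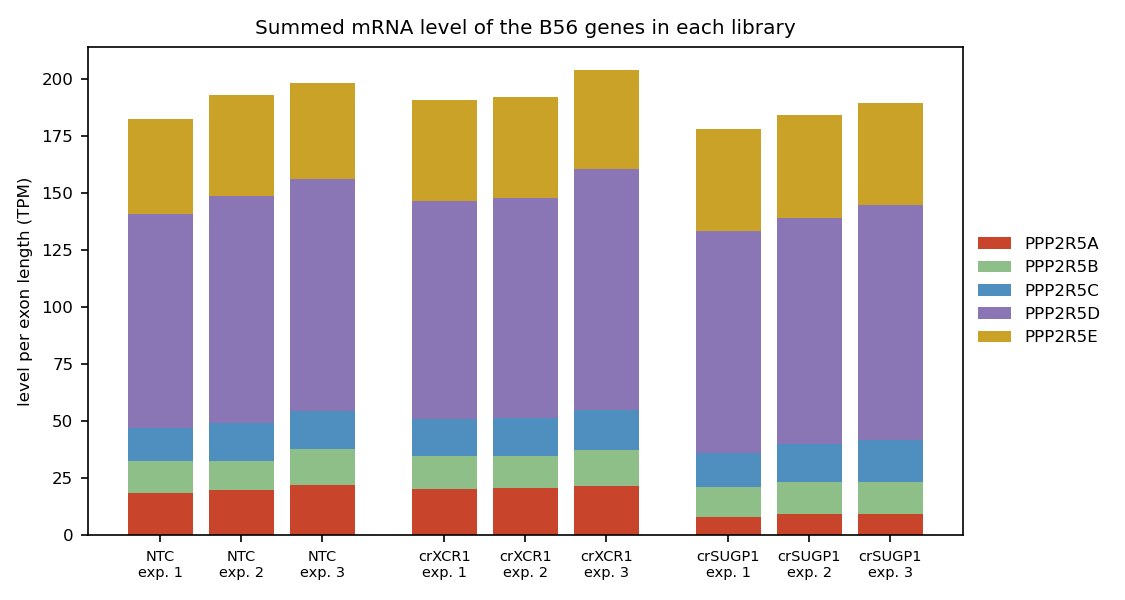
Stacked mRNA level of the 5 B56 genes per exon length (TPM) in each library, from PPP2R5A at the base to PPP2R5E at the top. The PPP2R5A segment shrinks from about 10.5% of the bar in the controls to 4.76% in crSUGP1, while the bars differ little in height, at means of 191, 196 and 184 TPM. The PPP2R5D segment could hold reads of MEA1.

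The PP2A genes were also compared between experiments. In the fit with guide and experiment, 5 of 10 members differed between the 3 experiments by an edgeR F test at an adjusted p of at most 0.05, against 40.8% of all genes, so their share was near that of all genes. PPP2CB in experiment 3 differed by −16.2% from the mean of experiments 1 and 2, PPP2R1B by −13.9%, PPP2CA by −12.1% and PPP2R2A by −11.3%. The adjusted p by edgeR was 4.99e-04, 0.00434, 0.00788 and 0.0318 in that order. PPP2R5C went the other way, 6.61% higher in experiment 3, with an adjusted p of 0.0459 by edgeR.

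PPP2R5A did not pass that test, with experiment 3 at 5.76% above the others and an adjusted p of 0.239 by edgeR, and PPP2R5B, PPP2R5D, PPP2R5E and PPP2R1A did not pass it either. The count of 5 members fell to 2 without the NTC library or without the crXCR1 library of experiment 3, and to 0 without all libraries of experiment 3. The depth of the experiment 3 libraries ran from 68712738 to 107952835 counts, the whole range of the 9 libraries, and its part in the result was not tested.

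The wider PP2A system was described by 5 lists with 59 genes, all of them tested: other B subunits, regulators of assembly and activity, partners in the STRIPAK and Integrator complexes, related phosphatases, and proteins that bind B56. By edgeR, 0 of 59 rose and 0 fell in any of the 3 comparisons, and the blocked fit and DESeq2 also called 0. At an unadjusted p under 0.05 by edgeR there were 14 of 59 against NTC and 16 of 59 against crXCR1, that is 23.7% and 27.1% beside 13.2% and 16.1% of all genes. Between the controls it was 1 of 59.

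Dropping the fold threshold, the blocked fit by edgeR put 14 of the 59 genes past an adjusted p of 0.05 against NTC, 9 higher and 5 lower. Of all genes, 15.7% passed it in either direction and 6.72% on the higher side. Against crXCR1 the blocked fit put 17 of 59 past it, 12 higher and 5 lower. There 21.7% of all genes passed it in either direction and 9.99% on the higher side.

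The proteins that bind B56 were mostly on the higher side in crSUGP1. Their list had 11 genes, of which 10 had a fold change above 0 against NTC and 11 against crXCR1. The medians were 0.13 and 0.12 on the log2 scale, beside a median of 0.00 for all genes. None passed the test without the block. With experiment as a block and no fold threshold, 4 passed an adjusted p of 0.05 by edgeR against NTC and 3 against crXCR1, all higher. Of all genes, 6.72% and 9.99% were higher at that adjusted p. SGO2, a shugoshin that holds B56 at centromeres, had log2 fold changes of 0.24 against either control group. SGO1, its relative, was at 0.32 against crXCR1 and 0.08 against NTC, with the control groups themselves 0.24 apart. CCNG1, a cyclin that recruits B56, was at 0.24 and 0.12 against NTC and crXCR1, and BUB1B, which carries B56 to kinetochores, was at 0.04 and 0.06. RACGAP1 and KIF4A, which act at the spindle midzone, were at 0.20 and 0.16 against NTC. The Wnt scaffold genes APC and AXIN1 were at 0.13 and 0.08 against NTC.

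The other B subunits numbered 8, with a median of 0.04 against NTC and 0.02 against crXCR1. STRN, a striatin that links PP2A to the STRIPAK complex, was lowest against NTC at −0.19, and its relative STRN3 was highest at 0.11. None of the 8 passed the test without the block. With it and no fold threshold, 1 passed an adjusted p of 0.05 by edgeR against NTC and 2 against crXCR1, beside 15.7% and 21.7% of all genes. The 13 STRIPAK and Integrator partners had medians of 0.09 and 0.10, beside 0.00 for all genes. Against each control group 10 of 13 were above 0 and none passed the test without the block. With the block and no fold threshold, 3 of these 13 passed that adjusted p against NTC, 2 of them higher. Against crXCR1 it was 4, with 3 of them higher. Of all genes, 15.7% and 21.7% passed it, with 6.72% and 9.99% on the higher side.

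The 14 regulators had medians of −0.01 and 0.03. PTPA, an activator of the catalytic subunit, was lowest against NTC at −0.14, and PPME1, which removes the methyl group from the C subunit, was highest at 0.20. CIP2A, an inhibitor that binds B56 enzymes, was at 0.18 against NTC and 0.23 against crXCR1. None of the 14 passed the test without the block. With it and no fold threshold, 3 passed an adjusted p of 0.05 by edgeR against NTC and 4 against crXCR1, beside 15.7% and 21.7% of all genes.

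The 13 related phosphatases had medians of 0.01 and 0.02, and none passed the test without the block. With it and no fold threshold, 3 passed an adjusted p of 0.05 by edgeR against NTC and 4 against crXCR1, beside 15.7% and 21.7% of all genes. The largest value of the 5 lists against NTC was in this one: PPP6R3, a regulatory subunit of protein phosphatase 6, was at 85.7 CPM in crSUGP1, against 106 in either control group. In both comparisons its log2 fold change was −0.31, and edgeR gave it an adjusted p of 0.0634 with NTC and 0.0580 with crXCR1 as the control. With experiment as a block these were 7.05e-04 and 5.43e-04 by edgeR, and PPP6R3 stayed under the fold threshold. PPP6R2, its relative, was at −0.22 and −0.25.

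The genes next to PPP2R5A on chromosome 1 were examined to see whether the drop extended beyond it. The 5 nearest tested genes on each side lay at −631 to 198 kb from it, where negative distances are toward the start of the chromosome, and no tested gene overlapped its span. PACC1, a chloride channel gene that lies 2.08 kb after PPP2R5A on the other strand, had log2 fold changes in crSUGP1 of 0.18 against NTC and 0.24 against crXCR1, and was not called. DTL, the nearest on the other side at −178 kb, was at 0.04 and 0.06.

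Of the 10 neighbours, edgeR called 1 in each comparison with crSUGP1 (beside 0.783% and 0.774% of all genes), the transcript AC092803.1, which lies 196 kb after PPP2R5A. It held 5.78, 5.97 and 6.26 CPM in NTC, 6.33, 5.65 and 6.62 in crXCR1 and 3.97, 4.17 and 3.43 in crSUGP1. The crSUGP1 libraries lay below all the controls. With NTC as the control its log2 fold change was −0.64 (SE 0.10), with an adjusted p of 0.0175 by edgeR. With crXCR1 it was −0.69 (SE 0.10), with an adjusted p of 0.0135 by edgeR. The genes between it and PPP2R5A, PACC1, AC092803.3 and NENF, were not called. AC092803.3, at 0.288 CPM in crSUGP1, had log2 fold changes of −0.46 and −0.48 against NTC and crXCR1, and NENF 0.05 and 0.06. AC092803.4 at 198 kb was at −0.10 and −0.34, and NEK2 at −610 kb was at 0.25 and 0.19, neither called. In each crSUGP1 comparison 4 of the 10 neighbours were below 0. By edgeR 2 had an unadjusted p under 0.05 in each, beside 13.2% and 16.1% of all genes. Between the controls, 0 of the 10 neighbours were called by edgeR, by DESeq2 or with the block, and edgeR gave 0 an unadjusted p under 0.05.

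**Figure D5:**
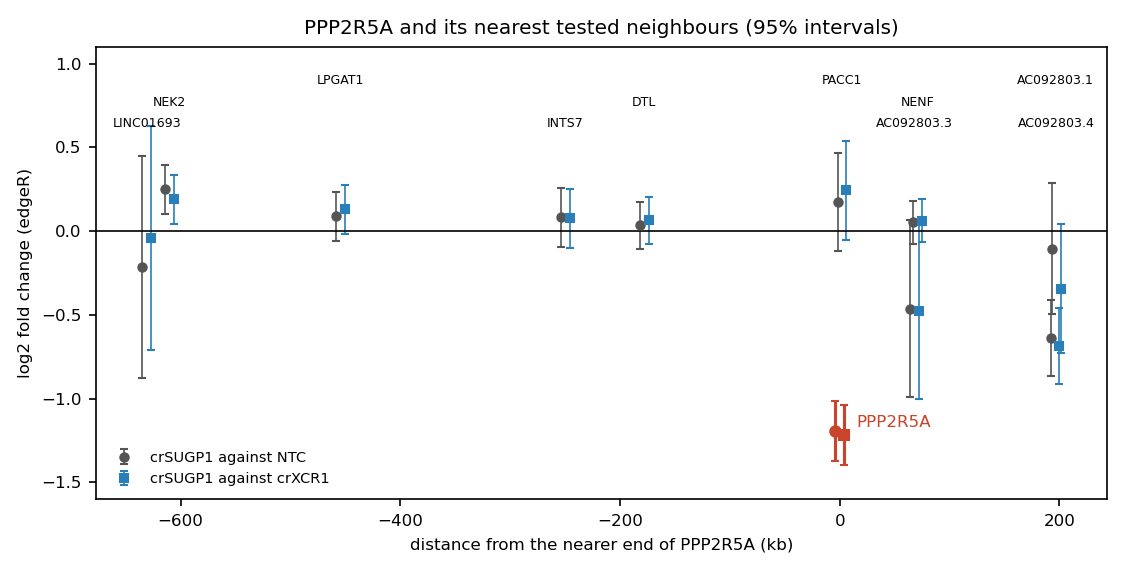
Log2 fold change by edgeR with 95% intervals for PPP2R5A (red) and the 5 nearest tested genes on each side, against the distance in kb from its nearer end. DTL, PACC1 and NENF lie near or above 0, AC092803.3, just before NENF, has a wide interval that includes 0, and the lower points at 196 kb are AC092803.1, at −0.64 and −0.69.

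The genes whose profile was most like that of PPP2R5A were sought among 16783 genes with a mean of at least 1 CPM, by the root mean square distance between log2 CPM values over the 9 libraries, each gene centred on its NTC mean. The nearest was WASHC5, a subunit of the WASH complex, at a distance of 0.0866, followed by ASB9 at 0.116, DYNC2I2 at 0.120, LMAN1 at 0.122 and RDX at 0.137, beside a median of 0.709 over all genes compared. WASHC5 was at 104 and 103 CPM in NTC and crXCR1 and at 44.1 in crSUGP1. In the same order LMAN1, a cargo receptor between the endoplasmic reticulum and the Golgi, was at 133, 129 and 55.5 CPM, and RDX, which links actin to the membrane, at 124, 123 and 59.8. Likeness was measured on the same libraries that chose PPP2R5A, and it describes levels alone.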

How the data were processed

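PolyA RNA of 9 U-2 OS libraries was sequenced. The deposited values are raw counts, which the authors made with SeqMonk from read pairs over exons, after trimming and alignment to GRCh38. The strand used in counting is not given in the sources used here. Per the submitters' processing notes, STAR was 2.7.9a, cutadapt 2.4, Trim Galore 0.6.7 and FastQC 0.11.5, and the statistics used R 4.1.0 with DESeq2 1.32.0. Of 38179 entries, 32 repeated ones were dropped.

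Counts were scaled by TMM and tested with edgeR 4.0.16 in R 4.3.3 (quasi-likelihood, guide as the only term, all 9 libraries, 6 residual degrees of freedom) over the 21071 genes that passed a minimum log2 CPM of −2 in 1 library or more, with Benjamini-Hochberg adjustment over all of them. A call needed an adjusted p no higher than 0.05 and a log2 fold change of 0.5 or more in size. limma 3.58.1, the data.table package at version 1.17.8 and, as an alternative, DESeq2 1.42.0 were also used, and the edgeR code was tested on simulated data. The study's methods give 3 independent experiments with all the guides in each, and the replicate number of the labels was taken as the experiment. Deviations from group means of same-numbered libraries correlated at 0.483 to 0.893 over 9 pairs, against −0.843 to 0.642 over 18 pairs of other numbers, so a block for experiment was fitted as an alternative. Other alternatives were other scalings, filters, dropping the fold threshold and leaving out libraries. Gene lengths and positions came from GENCODE 44 on GRCh38. Guide sequences came from the study's supplement. Without the block, the p-values measure the spread between these experiments on 1 cell line. With it, and in the F test between experiments, they measure the spread left once differences between experiments are taken out, on 4 residual degrees of freedom.

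The members and lists were chosen with earlier results of these data known. The text names the 10 members, SUGP1, list and neighbouring genes called against a control, and the 5 genes nearest to PPP2R5A in profile. Other genes named from the lists, such as those at the ends of a list's range, and the tested genes that share exons or position with a member were chosen after their values were seen. A leukocyte marker is not reported here.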

Additional observations from a re-analysis of the deposited data

How the results depend on the processing

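PPP2R5A stayed lower in crSUGP1 under each of the 19 alternatives tried for it, with log2 fold changes of −1.27 to −1.14 against NTC and −1.28 to −1.16 against crXCR1, and was called under 17 of them, which describes its value and is no support for it, since it was chosen on these contrasts. Without all libraries of experiment 1 (−1.17 against either control group) and without those of experiment 2 (−1.27 and −1.28) it missed the call, with adjusted p by edgeR of up to 0.0986 on the 6 libraries left. Leaving out libraries, the number of members called thus ran from 0 to 1 against each control group. The other 9 members were called under none of the alternatives. PPP2CB had adjusted p of 0.00453 to 0.991 against NTC and 0.00249 to 0.770 against crXCR1 over its 19 alternatives, lowest with the replicate block by edgeR. Without the block, its adjusted p by edgeR fell as low as 0.0303 against NTC and 0.0327 against crXCR1 when libraries were left out. That block, the pairing by experiment, raised the genes called from 165 to 601 against NTC and from 163 to 821 against crXCR1, and it changed no call among the members.

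The alternative without a fold threshold reuses the main fit, so it could change no sign and remove no call. Of the 570 fold changes compared over the alternatives, 536 kept their direction and their side of the threshold, and 30 near 0 changed sign when libraries were left out, none of them called. Over those left-out libraries, the log2 fold change in crSUGP1 against NTC ran from −0.143 to 0.00154 for PPP2R5B, −0.0148 to 0.151 for PPP2R2A, −0.00366 to 0.161 for PPP2R1B and −0.0850 to 0.0610 for PPP2CA. In crSUGP1 against crXCR1 it ran from −0.0187 to 0.0728 for PPP2R5C and −0.0292 to 0.0941 for PPP2CA. In crXCR1 against NTC it ran from −0.0120 to 0.0822 for PPP2R5A, −0.00848 to 0.124 for PPP2R5B, −0.00504 to 0.0675 for PPP2R5C, −0.0393 to 0.0148 for PPP2R5D, −0.134 to 0.0328 for PPP2R2A, −0.00343 to 0.0240 for PPP2R1A, −0.129 to 0.0349 for PPP2R1B, −0.128 to 0.0179 for PPP2CA and −0.0808 to 0.0808 for PPP2CB. The members that varied between experiments numbered 0 to 5 when libraries were left out, 2 without the NTC or the crXCR1 library of experiment 3 and 0 without experiment 3. PPP2R5A made up 7.03%, 7.06% and 3.11% of the B56 sum in NTC, crXCR1 and crSUGP1 without division by length, and 8.81%, 8.87% and 3.96% with canonical transcript lengths, an alternative chosen after seeing the data. Gene counts hold no splicing or protein level.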
